A study of Mus musculus with 4 samples.

Results

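The mitochondrial respiratory chain subunits described here are 47 nuclear-encoded genes, chosen by a list of gene symbols and read from every probe, other than control probes, that the array files name after one of them. They make up 47 of the 24041 genes measured and are covered by 65 probes on 74 spots of each array. Complex I contributes 33 genes (Ndufa1 to Ndufa13, Ndufb2 to Ndufb11, Ndufs1, Ndufs3 to Ndufs8 and Ndufv1 to Ndufv3). Complex II contributes 4 (Sdha, Sdhb, Sdhc and Sdhd), complex III 3 (Uqcrc1, Uqcrc2 and Uqcrfs1), complex IV 5 (Cox4i1, Cox5a, Cox5b, Cox6c and Cox7c) and complex V 2 (Atp5a1 and Atp5b).

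The study measured mouse primary osteoblasts after 72 h on single-colour Agilent arrays, in a search for factors that govern osteoblast differentiation under BMP2. One group received BMP2 at 200 ng/ml with LOXL2 at 4 µg/ml, another BMP2 at 200 ng/ml alone, another LOXL2 at 4 µg/ml alone, and the last neither protein, with 1 array for each. All cultures were kept in 10% serum, and the labels call the cells osteoblasts on the arrays with BMP2 and pre-osteoblasts on those without it. BMP2 is a growth factor of bone and cartilage formation. LOXL2, an enzyme of the lysyl oxidase family, is secreted and forms cross-links in collagen. The labels give no strain, age or donor animal, and whether the 4 cultures are separate preparations is not stated. No error below therefore measures the spread between replicate cultures. The standard errors rest on the 4 arrays and are drawn toward a value common to all genes. In the fit, a BMP2 effect that differed with LOXL2 would count as error.

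The respiratory chain of the inner mitochondrial membrane passes electrons from NADH through complex I, or from succinate through complex II, to ubiquinone, then through complex III and cytochrome c to complex IV, which reduces oxygen. Complexes I, III and IV pump protons, and complex V, the ATP synthase, uses the proton gradient to make ATP. Nearly all subunits are encoded in the nucleus, their transcription is known to depend on factors such as NRF1 and GABP and on the coactivator PGC-1α, and bone-forming cells are known to use both respiration and aerobic glycolysis.

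The 4 arrays were alike in depth, with 60.4% to 62.2% of spots well above background. They were on 1 slide with 1 scan time, and the place of an array on the slide cannot be told apart from its treatment. Of the osteoblast markers, Runx2 was above background on all 4 arrays and differed by 0.076 on the log2 scale with BMP2 (limma adjusted p = 0.366), and Sp7 rose by 2.23 (adjusted p = 0.0206). The summed level of 10 of 12 osteoblast markers (5 rose and 0 fell), as multiples of each array's 75th percentile of intensity, was 1110 with BMP2 + LOXL2 and 1150 with BMP2, against 1110 with LOXL2 and 1110 untreated. Col1a1 and Col1a2 carried most of that sum, and the other 8 markers summed to 138 with BMP2 + LOXL2 and 113 with BMP2, against 38.2 with LOXL2 and 33.0 untreated. Dmp1 was not among the genes measured, and Bglap1 is an older symbol of genes already in the list. Other marker lists moved with BMP2. Chondrocyte markers (10 of 10 measured, all of which rose) summed to 380 and 249 on the arrays with BMP2 + LOXL2 and with BMP2, against 63.9 and 54.9 with LOXL2 and untreated, where 1 and 3 of them were not above background. Of these, Matn1 passed the background filter only through the arrays with BMP2, so its call is not independent of that filter. Leukocyte markers (14 of 14 measured, 6 fell and 0 rose in limma) summed to 32.8 and 34.7, against 42.6 and 41.1. Most of that sum came from Itgam and Csf1r, which did not pass (limma adjusted p = 0.117 and 0.107). Tendon and fibroblast markers (9 of 9 measured, 6 fell and 1 rose) summed to 397 and 398, against 541 and 534. Dcn, which fell, carried most of the latter sum. In these bulk samples fewer cells of a type and less RNA per cell cannot be told apart, and the part of these shifts in the values below was not tested.

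Signals of the respiratory chain subunits differed little between cultures with and without BMP2. Values are log2 intensities relative to the array's 75th percentile, so that 1 unit is a 2-fold difference, and a BMP2 effect is the fitted difference between the 2 arrays with BMP2 and the 2 without it. All 47 genes were above background on all 4 arrays, and none passed the BMP2 test at a limma adjusted p under 0.05, whereas 20.3% of all genes did (10.3% higher and 9.97% lower). The smallest adjusted p among the subunits was 0.0507, that of Ndufa6. At an unadjusted p under 0.05 there were 7 subunits, or 14.9%, against 42.9% of all genes.

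The fitted BMP2 effects of the 47 subunits ran from -0.32 for Ndufa3 to 0.33 for Ndufa6, with standard errors of 0.052 to 0.068. Their median was 0.056, beside 0.017 for all genes and 0.070 for the 5734 other genes whose mean signal lay in the subunits' range. An effect within 0.2 of 0 was found for 40 subunits (85.1%), against 49.1% of all genes and 52.0% of the genes of the same signal range. The BMP2 test was passed by 23.4% of the genes of that range. The effect was positive for 33 subunits (70.2%) and negative for 14, while 52.4% of all genes and 60.8% of the genes of that range were positive. This split of the subunits depended on the scaling and was 12 positive and 35 negative under quantile normalization. The 95% intervals of single subunits reached from -0.54 at the lowest to 0.51 at the highest, and an adjusted p above the threshold does not show that a gene did not differ.

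**Figure D1:**
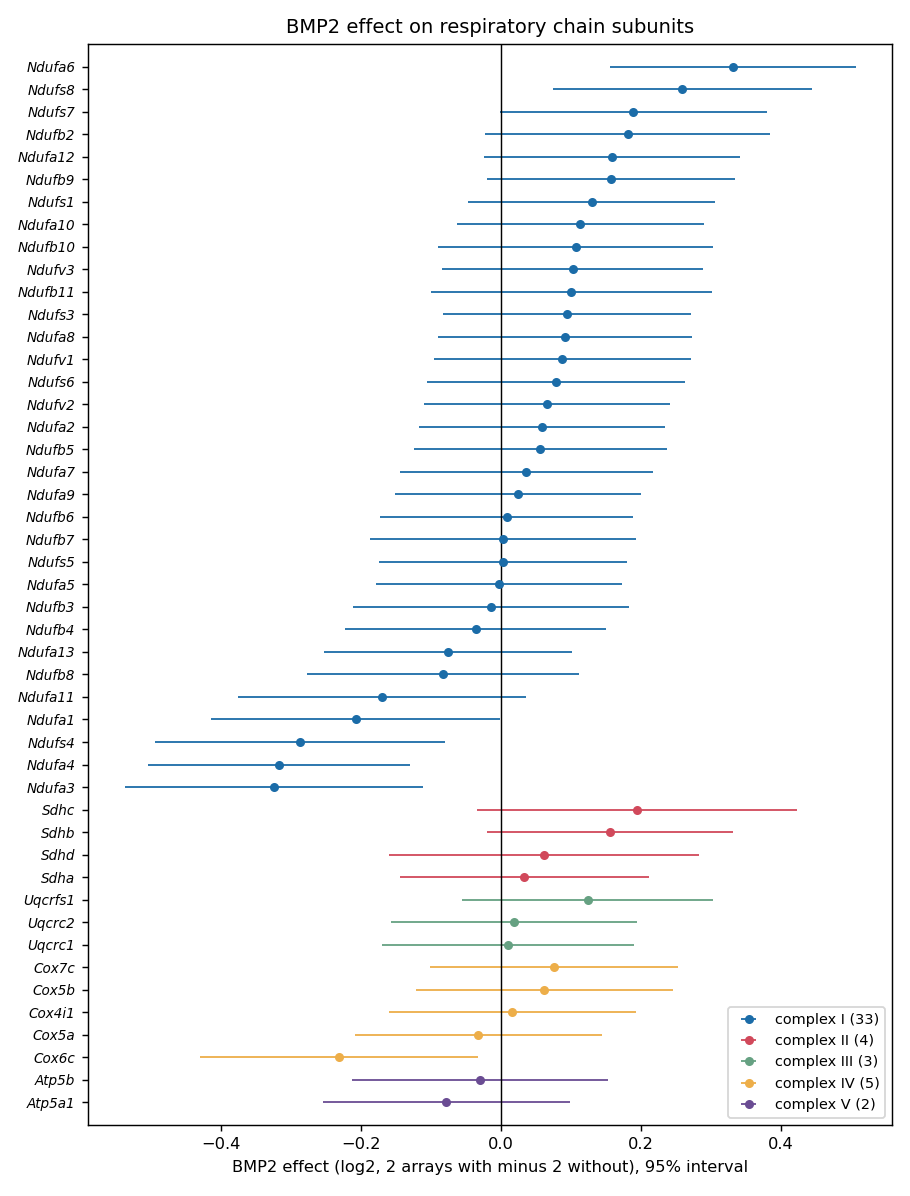
Fitted BMP2 effect (log2, the 2 arrays with BMP2 minus the 2 without) for each of the 47 subunits, as points with 95% intervals from limma, coloured by complex and sorted within it. Most points lie within 0.2 of 0, and the range runs from -0.32 for Ndufa3 to 0.33 for Ndufa6; the 33 positive and 14 negative effects became 12 and 35 under quantile normalization.

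The number of subunits called depended on the settings, and in each setting with any call the share of subunits was below that of all genes. With trended and robust variance settings in limma, 17 subunits passed (11 rose and 6 fell), which is 36.2% against 43.2% of all genes. With normexp background correction 6 passed, or 12.8% against 37.8%. Ndufa3, Ndufa4 and Ndufa6 passed when genes had to be above background on all 4 arrays, 6.38% of subunits against 28.2% of genes. Without a filter on dim probes neither any subunit nor any gene passed.

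The arrays with and without BMP2 did not overlap for 70.9% of all genes. For 24 subunits (51.1%) both arrays with BMP2 lay above both arrays without it, as they did for 38.1% of all genes. For 10 subunits (21.3%) both lay below, against 32.8% of all genes, and for 13 the groups overlapped. Among the other genes of the same signal range the shares were 51.5% above and 30.9% below. The levels of all 47 subunits, summed as multiples of the 75th percentile, were 1902 with BMP2 + LOXL2 and 1918 with BMP2, against 1871 with LOXL2 and 1924 untreated. The summed groups overlapped, and the untreated array had the highest sum of the 4.

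The promoters are shown for Ndufa6, with the highest BMP2 effect, for the complex II subunit Sdhb, and for Ndufa11, whose effect was negative, because all 3 hold the core letters of the NRF1 motif, a factor known to drive respiratory chain genes. The sequences are from RefSeq on GRCm38.p6, 120 bases each, written 5′ to 3′ on the gene's strand with the motif in capitals. The Ndufa6 window is chr15:82354311-82354430 on the minus strand, that of Sdhb chr4:140961151-140961270 on the plus strand and that of Ndufa11 chr17:56717642-56717761 on the plus strand. In Ndufa11 the capitals cover overlapping matches on both strands.
Ndufa6 promoter: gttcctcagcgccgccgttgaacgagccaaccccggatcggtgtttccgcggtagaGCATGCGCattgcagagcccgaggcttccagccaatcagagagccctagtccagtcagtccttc
Sdhb promoter: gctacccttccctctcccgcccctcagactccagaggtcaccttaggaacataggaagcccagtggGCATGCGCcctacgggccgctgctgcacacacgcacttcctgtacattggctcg
Ndufa11 promoter: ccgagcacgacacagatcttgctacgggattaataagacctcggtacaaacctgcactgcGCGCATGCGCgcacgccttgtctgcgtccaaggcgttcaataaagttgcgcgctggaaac

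Of the 47 subunits, 39 matched the promoter table, with 41 promoters of 250 bases before to 50 after the start, and the table holds 32851 promoters in all. The NRF1 letters GCATGCGC, searched on both strands, were in 12.2% of subunit promoters and 2.71% of all promoters. They were found in Ndufa6, Ndufa8, Ndufa11, Sdhb and Uqcrc1, whose BMP2 effects ran from -0.17 to 0.33. The ETS letters CCGGAAG, the core that GABP reads, were in 14.6% against 8.86%. The YY1 letters AAGATGG were in 17.1% against 6.34%, and the SP1 letters GGGGCGG in 31.7% against 23.2%. These are matches of letters and describe the sequence only. The median BMP2 effect was 0.092 for the 5 genes with the NRF1 letters and 0.046 for the other 34. With and without the letters it was 0.078 and 0.036 for ETS and 0.092 and 0.035 for SP1. For YY1 it went the other way, with 0.024 and 0.059. The genes with NRF1 letters are few and their effects spread widely, and no link between a motif and the BMP2 effect was tested.

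Complex I oxidises NADH through a core of conserved subunits surrounded by accessory ones. The 6 core subunits measured here (Ndufv1, Ndufv2, Ndufs1, Ndufs3, Ndufs7 and Ndufs8) belong to the peripheral arm, where all but Ndufs3 carry its flavin or iron-sulfur clusters. All 6 had positive BMP2 effects, from 0.065 to 0.26 with a median of 0.11, and all 6 were higher on both arrays with BMP2 than on both without (38.1% of all genes were, and 51.5% of the genes of the same signal range), while under quantile normalization 3 of the 6 effects were positive. Ndufs8, which holds iron-sulfur clusters, read 2.28 with BMP2 + LOXL2 and 2.24 with BMP2, against 1.99 with LOXL2 and 2.01 untreated. The arrays with BMP2 were the high ones and did not overlap with the others. Its fitted effect was 0.26 ± 0.05 (SE), with a limma adjusted p = 0.0729.

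The accessory subunit Ndufa6, an LYR-motif protein that binds the mitochondrial acyl carrier protein, had the highest effect. It read 4.66 with BMP2 + LOXL2 and 4.68 with BMP2, against 4.33 with LOXL2 and 4.35 untreated. Both arrays with BMP2 were above both without it, by close to the same amount in the 2 pairs (0.33 under LOXL2 and 0.33 without). The effect of 0.33 ± 0.05 is a 1.26-fold difference, and its adjusted p = 0.0507 missed the threshold. The Ndufa6 probe lies at chr15:82181444-82181503 on mm9.

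At the other end stood Ndufa3 and Ndufa4. Ndufa3, a small accessory subunit of the membrane arm, read 5.235 with BMP2 + LOXL2 and 5.24 with BMP2, against 5.50 with LOXL2 and 5.62 untreated. Ndufa4, named for complex I and later assigned to complex IV, read 4.25 and 4.23 on the arrays with BMP2 + LOXL2 and with BMP2, against 4.53 with LOXL2 and 4.58 untreated. For both genes the arrays with BMP2 were the low ones and did not overlap with the others. The fitted effects were -0.32 ± 0.06 for Ndufa3 (adjusted p = 0.0652) and -0.32 ± 0.06 for Ndufa4 (adjusted p = 0.057). Their probes lie at chr7:3571695-3571754 and chr6:11850423-11850482 on mm9.

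The other complex I genes fell between these. The 13 genes of the Ndufa family, which mixes subunits of several modules, spanned the whole range from -0.32 to 0.33, with 7 positive and 6 negative effects. The 10 genes of the Ndufb family, accessory subunits of the membrane arm, were closer together, from -0.083 to 0.18, with 7 positive and 3 negative. The remaining 4 accessory subunits (Ndufs4, Ndufs5, Ndufs6 and Ndufv3) ran from -0.29 to 0.10, and the lowest was Ndufs4, a subunit needed for complex I assembly and stability (adjusted p = 0.0738). The median of all 33 complex I genes was 0.058, and -0.057 under quantile normalization. Their summed level was 1181 with BMP2 + LOXL2 and 1190 with BMP2, against 1156 with LOXL2 and 1183 untreated.

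**Figure D2:**
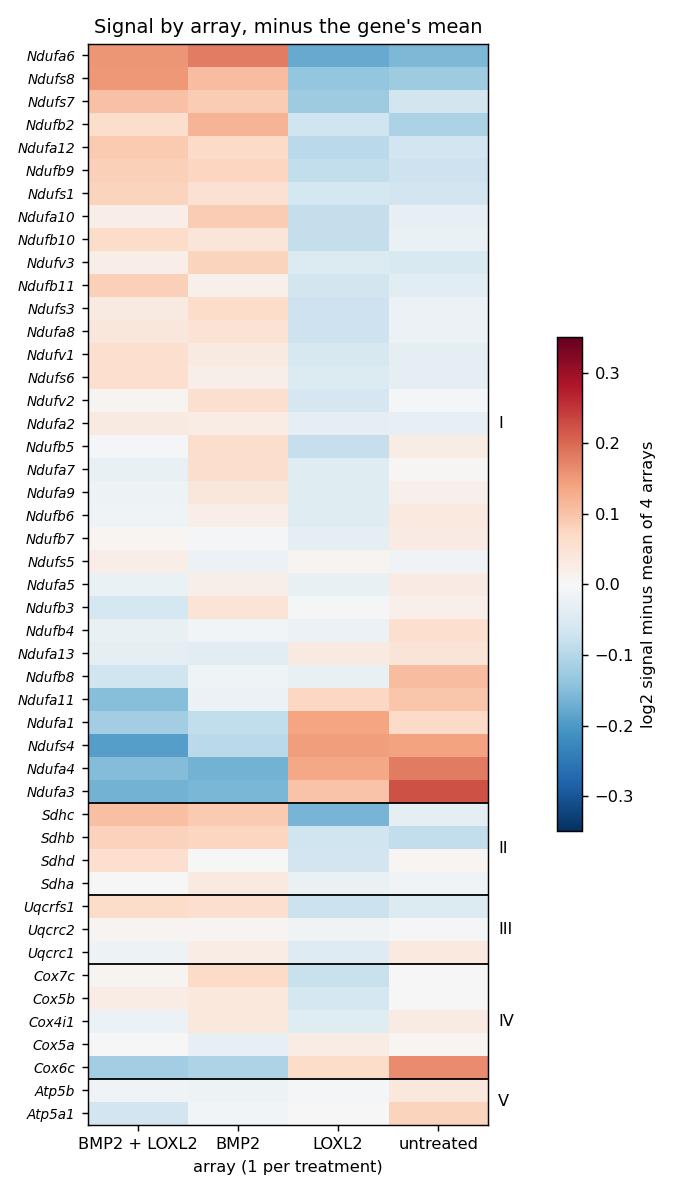
Signal of the 47 subunits on each of the 4 arrays (log2, minus the gene's mean over the 4 arrays), with rows grouped by complex and sorted by BMP2 effect. Ndufa6 and Ndufs8 are higher, and Ndufa3, Ndufa4 and Cox6c lower, on both arrays with BMP2, while most rows stay near 0; 33 subunits had positive BMP2 effects, or 12 under quantile normalization.

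Complex II, succinate dehydrogenase, feeds electrons from the citric acid cycle into ubiquinone. Its 4 subunits had effects of 0.033 to 0.19 with a median of 0.11, and none passed the test (smallest adjusted p = 0.139, Sdhb). Sdhc, a membrane anchor that helps to bind ubiquinone, read 4.45 with BMP2 + LOXL2 and 4.44 with BMP2, against 4.18 with LOXL2 and 4.31 untreated. The arrays did not overlap, but the 2 arrays without BMP2 differed by 0.13 from each other, and the effect was 0.19 ± 0.07 (adjusted p = 0.148). The iron-sulfur subunit Sdhb read 5.59 and 5.59 on the arrays with BMP2 + LOXL2 and with BMP2, against 5.44 with LOXL2 and 5.42 untreated, with an effect of 0.16 ± 0.05.

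The catalytic flavoprotein Sdha read 4.26 with BMP2 + LOXL2 and 4.30 with BMP2, against 4.24 with LOXL2 and 4.25 untreated (effect 0.033). The arrays with BMP2 were higher by less than the standard error of 0.053. For the other anchor, Sdhd, the values were 4.24 with BMP2 + LOXL2 and 4.185 with BMP2, against 4.12 with LOXL2 and 4.19 untreated, and the groups overlapped. The effects of Sdha and Sdhd were below 0 under quantile normalization. The 4 genes summed to 108.2 with BMP2 + LOXL2 and 107.6 with BMP2, against 97.89 with LOXL2 and 100.1 untreated, and complex II was the complex with the highest median.

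In complex III, which hands electrons from ubiquinol to cytochrome c, Uqcrfs1, the Rieske iron-sulfur protein, had an effect of 0.12 ± 0.05 (adjusted p = 0.199). It read 4.74 with BMP2 + LOXL2 and 4.73 with BMP2, against 4.60 with LOXL2 and 4.62 untreated, and the groups did not overlap. The core protein Uqcrc1 read 3.22 with BMP2 + LOXL2 and 3.26 with BMP2, against 3.19 with LOXL2 and 3.27 untreated. These values overlapped, and the effect was 0.0096.

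The other core protein, Uqcrc2, was printed on 10 spots of each array and so gives the firmest reading within an array. It read 4.50 ± 0.040 with BMP2 + LOXL2 and 4.50 ± 0.035 with BMP2, against 4.48 ± 0.031 with LOXL2 and 4.48 ± 0.039 untreated (SD over 10 spots of 1 array). The fitted effect was 0.019 ± 0.052 (SE), with an adjusted p = 0.808. The spots share a culture and are not replicates of it.

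With Ndufa4 counted in complex I, as in all values by complex here, complex IV, cytochrome c oxidase, held the lowest effect outside complex I. Cox6c, a small membrane subunit, read 5.97 with BMP2 + LOXL2 and 5.98 with BMP2, against 6.16 with LOXL2 and 6.26 untreated. The arrays with BMP2 were the low ones, and the effect was -0.23 ± 0.06 (adjusted p = 0.0927). Cox5a, on the matrix side, read 6.225 and 6.197 on the arrays with BMP2 + LOXL2 and with BMP2, against 6.252 with LOXL2 and 6.235 untreated, which differed by less than the standard error.

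Cox5b, also on the matrix side, read 5.65 with BMP2 + LOXL2 and 5.66 with BMP2, against 5.56 with LOXL2 and 5.62 untreated. Cox7c, another small membrane subunit, read 5.712 with BMP2 + LOXL2 and 5.771 with BMP2, against 5.625 with LOXL2 and 5.705 untreated. Their effects were 0.062 and 0.076, with the arrays just apart, and below 0 under quantile normalization. Cox4i1, the widely expressed form of subunit IV, read 6.31 with BMP2 + LOXL2 and 6.37 with BMP2, against 6.29 with LOXL2 and 6.36 untreated, and the groups overlapped.

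Of complex V, the catalytic subunit gene Atp5b read 7.321 with BMP2 + LOXL2 and 7.316 with BMP2, against 7.326 with LOXL2 and 7.371 untreated. Atp5a1, which encodes the α subunit of the same catalytic head, read 6.24 with BMP2 + LOXL2 and 6.30 with BMP2, against 6.31 with LOXL2 and 6.38 untreated. The arrays with BMP2 were lower for both genes, by 0.030 ± 0.054 for Atp5b and 0.078 ± 0.052 for Atp5a1 (SE), and neither passed the test (smallest adjusted p = 0.352). By complex, the median BMP2 effect was 0.058 for complex I, 0.11 for II, 0.019 for III, 0.016 for IV and -0.054 for V. Complexes II to V hold 5 members or fewer each, and no difference between complexes was tested.

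The BMP2 difference could be read from 2 pairs of arrays that share none, BMP2 + LOXL2 minus LOXL2 and BMP2 minus untreated, each without a test. No subunit differed by 1.5-fold or more in either, whereas 15.8% of all genes did under LOXL2 and 16.6% without it. Under LOXL2 the differences of the subunits ran from -0.34 to 0.33, and without LOXL2 from -0.38 to 0.33. The sign was the same in both pairs for 40 subunits (85.1%), beside 79.4% of all genes and 87.7% of the genes of the same signal range.

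**Figure D3:**
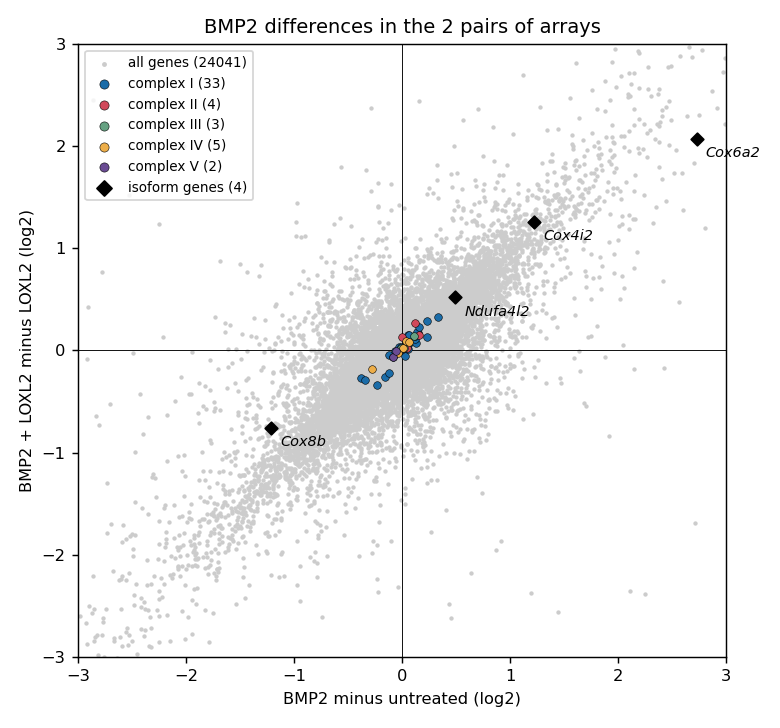
BMP2 differences in the pair with LOXL2 (vertical, BMP2 + LOXL2 minus LOXL2, log2) and the pair without it (horizontal, BMP2 minus untreated, log2), with 1 point per gene and axes that end at 3, beyond which genes are not drawn. The 47 subunits, coloured by complex, stay between -0.38 and 0.33 in both, with 40 of the same sign in both, while Cox4i2, Cox6a2, Ndufa4l2 and Cox8b (black) lie farther out.

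LOXL2 left the subunits closer still. Fitted LOXL2 effects ran from -0.094 for Ndufb8 to 0.031 for Ndufs5, with a median of -0.025 beside -0.0030 for all genes. None of the 47 passed the test (smallest adjusted p = 0.815), and none of the 24041 genes did in limma. At an unadjusted p under 0.05 there were 0 subunits, against 6.18% of all genes but 0.855% of the genes of the same signal range, and with trended and robust variance settings 14 genes passed, none of them a subunit. Negative effects were found for 37 of the 47, and for 35 to 39 under the other settings. Positive effects were thus found for 21.3% of the subunits, against 48.7% of all genes and 50.1% of the genes of the same signal range. Without BMP2, 8 subunits were higher on the array with LOXL2 than on the untreated array, and with BMP2 21 were higher on the array with both proteins than on that with BMP2 alone. No subunit reached 1.5-fold in either LOXL2 pair, against 3.39% of all genes without BMP2 and 3.46% with it. Of the 5734 other genes of the same signal range, 1 did without BMP2 and 6 with it. The small size of the subunits' LOXL2 differences was thus shared by genes of that range, while their lean to negative effects was not. The cause of that lean was not tested.

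Where a gene had several probes, the values above are those of the brightest. All 65 probes were above background on at least 2 arrays, and when every probe was fitted, 1 of the 65 passed (against 11.9% of all probes). It was a dim probe of Ndufb11, a membrane-arm subunit of complex I, at chrX:20194630-20194689 on mm9, upstream of the brightest Ndufb11 probe at chrX:20192453-20192512 on the minus strand. It read -1.54 with BMP2 + LOXL2 and -1.45 with BMP2, against -2.19 with LOXL2 and -2.10 untreated. Its effect was 0.65 ± 0.06 (adjusted p = 0.0381), while the other Ndufb11 probes gave 0.10 and 0.11, and the file places the last of these on chromosome 5. This gene is named because its probes disagreed, which was seen in the values.

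Probes of Ndufa3 disagreed as well. The brightest and the next gave -0.32 and -0.31, and a dim one upstream of both gave -0.0011. The 4 probes of Ndufb5, another membrane-arm subunit, ran from -0.0061 to 0.25. Dim ones gave -0.0061 and 0.0056, the brightest gave 0.056 and the remaining one 0.25. The 3 probes of Ndufv3 ran from -0.030 to 0.18, and those of Cox5b gave 0.062 and -0.016. The file places the first Cox5b probe on chromosome 1 and the second on chromosome 15. Closer together were the probes of Sdhb (0.16 and 0.12), Sdhc (0.19 and 0.13) and Cox7c (0.076 to 0.084). Which exon or UTR a probe lies in was not determined here.

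Tissue- and condition-specific forms of the same subunits lie outside the 47. Of 8 such genes, 6 were measured (Cox7b2 and Cox8c were not), and with BMP2 3 rose and 1 fell, against 10.3% and 9.97% of all genes. Cox4i2, the oxygen-responsive form of subunit IV known from lung, read 2.002 with BMP2 + LOXL2 and 1.86 with BMP2, against 0.75 with LOXL2 and 0.64 untreated. Cox6a2, the heart and skeletal muscle form of subunit VIa, read 2.15 with BMP2 + LOXL2 and 2.10 with BMP2, against 0.081 with LOXL2 and -0.63 untreated. Both genes were higher on the arrays with BMP2, with no overlap. Cox4i2 rose by 1.24 ± 0.05 (limma adjusted p = 0.0206) and Cox6a2 by 2.40 ± 0.21 (adjusted p = 0.029).

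Ndufa4l2, a HIF-induced paralog of Ndufa4 known to restrain complex I activity, read 6.19 with BMP2 + LOXL2 and 6.32 with BMP2, against 5.67 with LOXL2 and 5.83 untreated, and rose by 0.51 ± 0.05 (adjusted p = 0.0338). Cox8b, the muscle and brown fat form of subunit VIII, was dim and fell, with -4.37 with BMP2 + LOXL2 and -4.56 with BMP2, against -3.61 with LOXL2 and -3.35 untreated (effect -0.99 ± 0.15, adjusted p = 0.0474). The arrays with and without BMP2 did not overlap for either gene. Under quantile normalization Cox4i2 and Cox6a2 alone of the 4 passed, with the mean of a gene's probes Cox8b did not, and without a filter on dim probes none did. The testis form Cox6b2 and the muscle form Cox7a1 had effects of -0.28 (adjusted p = 0.0893) and -0.27 (adjusted p = 0.079).

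None of the 4 widely expressed counterparts passed the test. The effect was 0.016 for Cox4i1, -0.27 for Cox6a1 (adjusted p = 0.0651), -0.32 for Ndufa4 and 0.19 for Cox8a (adjusted p = 0.101). The longest run of bases that the 60-base probes of a pair share was 7 for Cox4i2 and Cox4i1, 4 for Cox6a2 and Cox6a1, 7 for Ndufa4l2 and Ndufa4 and 6 for Cox8b and Cox8a. Adipocyte and muscle markers (9 of 11 measured) summed to 18.6 with BMP2 + LOXL2 and 19.1 with BMP2, against 29.7 with LOXL2 and 31.2 untreated, and 1 of them, Acta1, fell. Without Acta1 the other 8 summed to 9.09 with BMP2 + LOXL2 and 9.01 with BMP2, against 7.59 with LOXL2 and 8.03 untreated. Of these 8, 0 were not above background with BMP2 + LOXL2, 2 with BMP2, 1 with LOXL2 and 3 untreated. Ucp1 and Ckm, which define brown fat and mature muscle, were not among the genes measured. The part of these cell types in the isoform values was not tested.

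**Figure D4:**
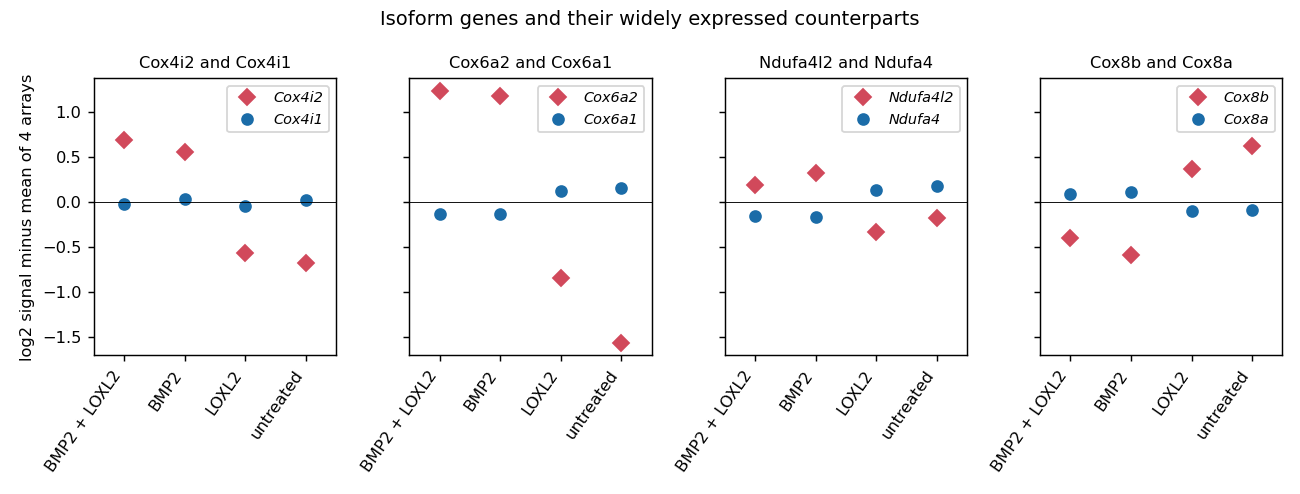
Signal on the 4 arrays (log2, minus the gene's mean over the arrays) for 4 specific subunit forms (diamonds) and their widely expressed counterparts (circles), with 1 array per treatment. Cox4i2, Cox6a2 and Ndufa4l2 are higher and Cox8b lower on both arrays with BMP2, and the counterparts have effects between -0.32 and 0.19; the calls of Ndufa4l2 and Cox8b were lost under quantile normalization.

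Further subunits of the same complexes, outside the 47, were read with the same test, which 20.3% of all genes passed. The 4 other complex I subunits measured had a median BMP2 effect of -0.063 with 0 called, the 6 other complex IV subunits 0.12 with 0 called, and the 14 other ATP synthase genes -0.0071 with 0 called. The complex IV effects ran from -0.27 for Cox6a1 to 0.29 for Cox7a2l. At an unadjusted p under 0.05 in limma there were 4 of these 6 (66.7%), against 42.9% of all genes. In the same way there were 0 of the 4 complex I subunits and 2 of the 14 ATP synthase genes (14.3%). Of 7 complex III subunits and cytochromes c, 1 passed (14.3%). Uqcrq, a small complex III subunit, rose by 0.39 ± 0.06 (adjusted p = 0.0462), and the median was 0.10. Of 29 assembly factors, 1 passed (3.45%). Sco2, which delivers copper to complex IV, rose by 0.60 ± 0.07 (adjusted p = 0.0355), and the median was 0.16.

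Regulators of mitochondrial biogenesis include the coactivator and the factors named above. Of 15 such genes 2 rose, Ppargc1a and Esrrg, and 0 fell (13.3%, against 20.3% of all genes), with a median of 0.13. Ppargc1a, which encodes the coactivator PGC-1α, read -1.09 with BMP2 + LOXL2 and -1.46 with BMP2, against -2.21 with LOXL2 and -2.40 untreated, and rose by 1.03 ± 0.07 (adjusted p = 0.0261). The nuclear receptor gene Esrrg was below background without BMP2 and at least 1.21-fold higher with it. It passed the background filter only through the arrays with BMP2, where it was high, so its call is not independent of that filter. Of the factors whose motifs were searched above, Nrf1 and Gabpa did not pass, with effects of 0.22 for Nrf1 (adjusted p = 0.0992) and 0.28 for Gabpa (adjusted p = 0.0654).

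HIF, the hypoxia-inducible factor, acts on genes of glucose use and of mitochondria. Of 9 HIF targets measured, 8 rose and 0 fell (88.9%, against 20.3% of all genes), with a median of 0.94. The list was chosen with earlier results of these data known, so this share is not independent of them. Without a filter on dim probes no gene passed. Several act on mitochondria, and of these Pdk1, which keeps pyruvate from oxidation, rose by 0.51 ± 0.05, Bnip3, a mitophagy receptor, by 0.94 ± 0.05, Higd1a, a respiratory chain-associated protein, by 0.77 ± 0.05 and the matrix protease Lonp1 by 1.15 ± 0.09. The others act on glucose uptake (Slc2a1, 1.48), lactate formation (Ldha, 0.39), pH (Car9, 1.58) and oxygen sensing (Egln3, 1.19). The mitophagy receptor Bnip3l differed by 0.43 with an adjusted p = 0.0538. Adjusted p for the called genes ran from 0.0206 to 0.045.

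**Figure D5:**
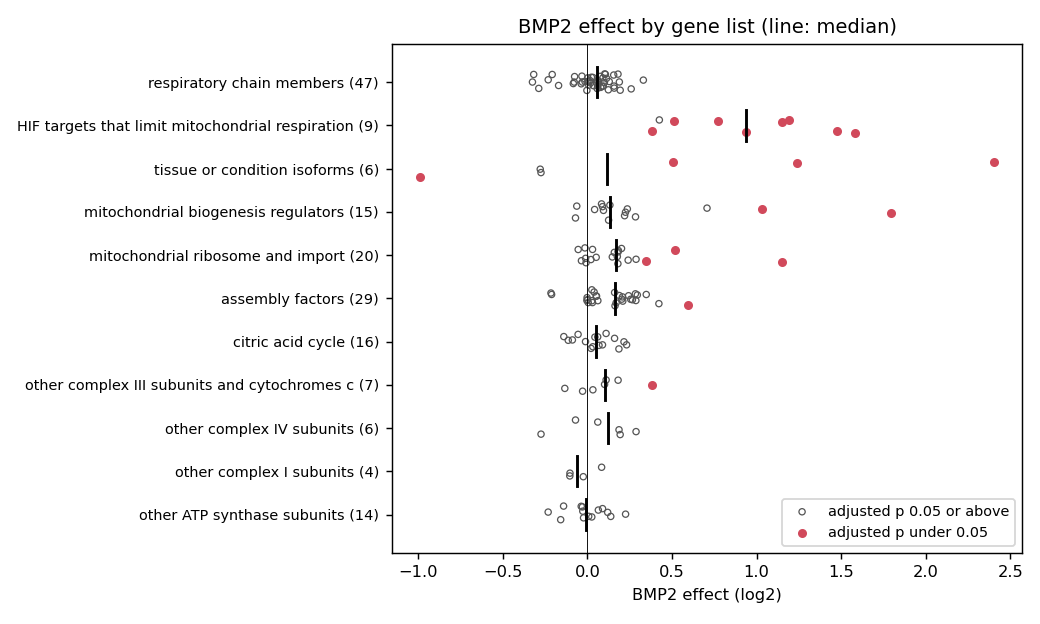
Fitted BMP2 effect (log2) of each gene in the 47 subunits and 10 related lists, 1 row per list with the number of genes measured; filled points passed at a limma adjusted p under 0.05 and the bar is the median. The subunits cluster around 0.056 (-0.057 under quantile normalization) with 0 filled points, while 8 of 9 HIF targets are filled. The lists were chosen with earlier results of these data known. The highest point among biogenesis regulators is Esrrg, below background without BMP2 and kept only through the arrays with BMP2.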

How the data were processed

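The data are 4 arrays of mouse primary osteoblasts, 1 per treatment. The deposited scanner files hold an intensity per spot. Per the submitters' processing notes, the authors used Agilent Feature Extraction 10.7.3.1, from 100 ng of total RNA per the labels' protocols. Per the file headers, local background was subtracted and signals not above background were replaced by surrogates. The deposited table of intensity values matched the scanner files (mean of the spots of each probe, tolerance 0.1%) at 99.52% to 99.53% of probes, with no scaling between arrays, and its medians were 40.8 to 41.7.

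Signals were log2-transformed, and the 75th percentile of the 59305 non-control spots (742.9 with BMP2 + LOXL2 and 725.4 with BMP2, against 723.7 with LOXL2 and 710.5 untreated) was subtracted. Outlier-marked spots (109 to 144 per array) were left out, no spot was saturated, and probes had to stand well above background on 2 or more of the 4 arrays. The brightest probe stood for a gene, which left 24041 genes. Names followed RefSeq where the accession matched (26762 of 55681 probes). Over 291 probes on 10 spots the median SD was 0.0642 to 0.0669, which covers spot error only, and the number of arrays limits the precision.

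BMP2 and LOXL2 effects were fitted together in limma 3.58.1 (R 4.3.3), with 1 residual degree of freedom, the interaction, and 1.72 prior ones. Tests were two-sided and adjusted by the Benjamini-Hochberg method over all genes. Where a gene was below background without BMP2, the fold is a lower bound against the lowest signal above background. Members and lists were chosen with earlier results of these data known. By rule, array values were given for members that passed a test (none did) and for the 2 with the highest and the 2 with the lowest BMP2 effects in each complex. Other members named, such as Cox4i1, Ndufs4 and Ndufb11, were chosen after their values were seen. Of other lists the called genes with the largest effects were named. Alternatives covered background correction, scaling, filter, probe choice, variance settings and the deposited value table.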

Additional observations from a re-analysis of the deposited data

Results flagged for a closer look

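For 7 subunits the BMP2 difference pointed in opposite directions in the 2 pairs of arrays, and this difference between pairs was not tested. The difference under LOXL2 minus that without LOXL2 was 0.13 for the complex II anchor Sdhd, with 0.13 under LOXL2 and -0.0038 without. It was -0.087 for Ndufb3, with -0.058 under LOXL2 and 0.030 without, and 0.070 for Ndufb7, with 0.038 and -0.032. For the others it was 0.040 for Ndufb6, 0.037 for Uqcrc1, 0.020 for Ndufs5 and 0.010 for Ndufa5. No single difference among these 7 was above 0.13 in size. Opposite signs were found for 7 of 47 subunits and 4959 of 24041 genes.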

How the results depend on the processing

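The BMP2 count of 4883 genes became 9086 with normexp background correction, 0 with no filter on dim probes and 10389 with trended and robust variance settings, and the LOXL2 count of 0 became 14 with the last. Of the 47 subunits, 0 passed for BMP2, and 6 passed with normexp (Cox6c, Ndufa3, Ndufa4, Ndufa6, Ndufs4 and Ndufs8), 2 with quantile normalization (Ndufa3 and Ndufa4), 1 with median centring (Ndufa6), 3 where genes had to be above background on all 4 arrays, 17 with trended and robust settings and 1 where all probes were fitted. Quantile normalization moved the median BMP2 effect to -0.057 for the 47 subunits (-0.057 for complex I, 0.022 for II, -0.16 for IV and -0.22 for V), and it turned Sdha to -0.042, Sdhd to -0.00090, Uqcrc1 to -0.033, Uqcrc2 to -0.049, Cox5b to -0.058 and Cox7c to -0.059. With normexp Uqcrc1 was -0.0096. The cause was not tested. No scaling moved the median of all genes by 0.1. With 1 array per treatment no array could be left out as a replicate. No paired analysis was possible because each treatment has 1 array and replicates to pair are lacking; the additive fit already compares BMP2 within each LOXL2 state. The number of arrays limits every value.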

Other observations

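Mitochondrial genes outside the respiratory chain were read with the same test. Of 16 genes of the citric acid cycle and pyruvate dehydrogenase, 0 passed for BMP2 in limma, against 20.3% of all genes, and 3 (18.8%) had an unadjusted p under 0.05, against 42.9%, with a median effect of 0.053. Of 20 genes of the mitochondrial ribosome and protein import, 3 rose and 0 fell (15%, against 20.3% of all genes called), with a median of 0.17. Hspa9, the matrix chaperone that pulls proteins through the import channel, read 5.53 with BMP2 + LOXL2 and 5.55 with BMP2, against 4.54 with LOXL2 and 4.24 untreated, and rose by 1.15 ± 0.11 (adjusted p = 0.0314). Mrps18b, a protein of the small ribosomal subunit, rose by 0.52 ± 0.05 (adjusted p = 0.0334), and the import receptor Tomm20 by 0.35 ± 0.05 (adjusted p = 0.0492).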
